A study of Caenorhabditis elegans with 9 samples.

Results

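The RNA of larvae in which both copies of hsf-1, the gene of the heat shock factor, carry the deletion ok600 was set against that of wild-type larvae of Caenorhabditis elegans. The genes described are all those with a valid estimate in both genotypes and an expression level of at least 1 FPKM (fragments per kilobase of transcript, scaled to the library's mapped fragments) in either, which were 13185 of 20389 genes listed. Among the others, 7166 were under 1 FPKM in both genotypes and 38 had no valid estimate. Of the 13185 genes, 11414 reached 1 FPKM in both genotypes, 1351 in the mutant alone and 420 in wild type alone.

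HSF-1 is the transcription factor that switches on chaperone genes when proteins misfold in heat, by binding heat shock elements in their promoters. It is also active without heat in growing larvae, where it acts on chaperone genes and genes of growth, and larvae that lack it arrest early in development. Chaperones of the Hsp70, Hsp90 and CCT classes fold newly made proteins, so the same genes serve growth in normal conditions and survival in stress.

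Whole animals of the L2 stage, the second larval stage, were sampled at 30 h from an egg lay of 2 h, at a stated temperature of 20 °C with no heat shock named. The mutant group, hsf-1(ok600), came as larvae without GFP from eggs of strain OG576, whose parents carry ok600 over the GFP-marked balancer hT2 of chromosomes I and III, so the mothers had a functional hsf-1 copy. A second mutant group, strain AM1061, carries ok600 together with the transgene rmSi1[hsf-1::gfp], and its levels are given beside those of the other groups where they help in reading a gene (the transgenic line). The third group was wild type, strain N2. Every group had 3 libraries, and every library was made from 500 larvae pooled over several collections, with RNA amplified by the SPIA method.

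The deposited tables give 1 FPKM per gene and genotype, combined by the authors over the 3 libraries, with a lower and an upper bound whose level is not stated. No value per library can therefore be shown, and the bounds stand in for the error. Depth is unknown, since FPKM does not keep it. Among the 4353 genes at 20 FPKM or more in both genotypes, the bounds lay a median of 63.3% above and below the mutant value and 65.7% above and below the wild-type one, so most intervals are wide. In RNA of whole animals, fewer cells of a type and less RNA per cell cannot be told apart. No stage score was recorded in the labels, and developmental progress at 30 h and genotype cannot be told apart.

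The targeted gene gave no check of the genotype. hsf-1 itself was at 21.4 FPKM (interval 6.52 to 36.4) in the mutant, 69.3 FPKM (interval 29.4 to 109) in the transgenic line and 25.3 FPKM (interval 7.62 to 43.1) in wild type. Mutant and wild type thus overlapped, with q = 0.749 in the authors' deposited table, and RNA of the part of the gene outside the deletion counts towards the value. None of the 5 tested genes for HSF-1 and its regulators passed the test, and their log2 differences lay between −0.54 and 0.70 with a median of −0.11. hsb-1, which encodes a heat shock factor binding protein, was at 38.99 FPKM in mutant larvae and 42.04 in wild type. ddl-1, for a protein that holds HSF-1 inactive together with HSB-1, was at 6.18 FPKM in mutant larvae and 3.42 in wild type, and cdc-37, for an Hsp90 cochaperone, at 101 FPKM in mutant larvae and 147 in wild type.

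A gene is called here when its q-value in the authors' deposited table is at most 0.05. By that rule 253 genes stood at the smallest p-value in the table, 5e-05, and 735 of 12615 tested genes were called in all, 5.83%. The counts in the 2 directions were close: 366 genes fell (2.9%) and 369 rose (2.93%). Among genes at 1 FPKM or more in both genotypes, 350 fell and 304 rose. Without adjustment, 2462 genes had a p-value under 0.05 in the same deposited table. These shares are the background against which the counts of each gene group below are read, and no group was tested as a set.

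Changes were mostly of moderate size. On the log2(FPKM + 1) scale, with differences taken as mutant minus wild type, 305 called genes fell by at least 1 and 285 rose by at least 1. At a log2 difference of at least 2 there were 69 that fell and 75 that rose, and at 3 or more 11 and 24. The pseudocount of 1 understates the change of low genes. The median difference of called genes was −1.44 among those that fell and 1.38 among those that rose, against 0.15 over all 13185 genes. Of all 13185 genes 57.7% were nominally higher in the mutant, the share beside which nominal counts below are read.

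A second description, without a p-value, asks whether the deposited intervals of the genotypes are apart. They were apart in 35 genes that were lower in the mutant, 0.265% of all, of which 33 were also called. In the other direction they were apart in 82 genes, 0.622%, of which 48 were called and 34 were not. Intervals apart are therefore not a stricter rule than the q-value. Most called genes therefore have overlapping intervals, and this holds for many of the genes named below.

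In wild type the genes that fell had a higher median level than the genes that rose, and in the mutant a lower one. Splitting genes by the direction of their change itself favours that order. The median level of the called genes that fell was 39.1 FPKM in the mutant and 105 in wild type. For the called genes that rose it was 69.9 FPKM in the mutant and 23.01 in wild type. In the last group 65 genes were below 1 FPKM in wild type, and 63 of these were listed at 0 there. Of the genes that fell, 16 were below 1 FPKM in the mutant, and 12 of these were listed at 0. Calls of rises from below 1 FPKM thus lay almost wholly on genes listed at 0. The F-box gene fbxa-163, at 8.96 FPKM in the mutant and 0.030 in wild type, was not called (q = 0.542 in the authors' deposited table). The share of genes called differed with the level. Among the 234 tested genes with a mean below 1 FPKM, which pass the minimum through 1 genotype alone, 1.28% fell and 11.1% rose. Among genes with a mean of 1 to 5 FPKM, 0.391% fell and 1.04% rose, while among genes at 100 to 500 FPKM 9.46% fell and 7.48% rose, and at 500 FPKM or more 10.8% fell and 6.81% rose. The median difference also moved with the level, being 0.95 for genes below 1 FPKM, 0.40 for genes at 1 to 5 FPKM and −0.01 at 500 FPKM or more, so a positive median of a list of weakly expressed genes lies near that of other weak genes.

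**Figure D1:**
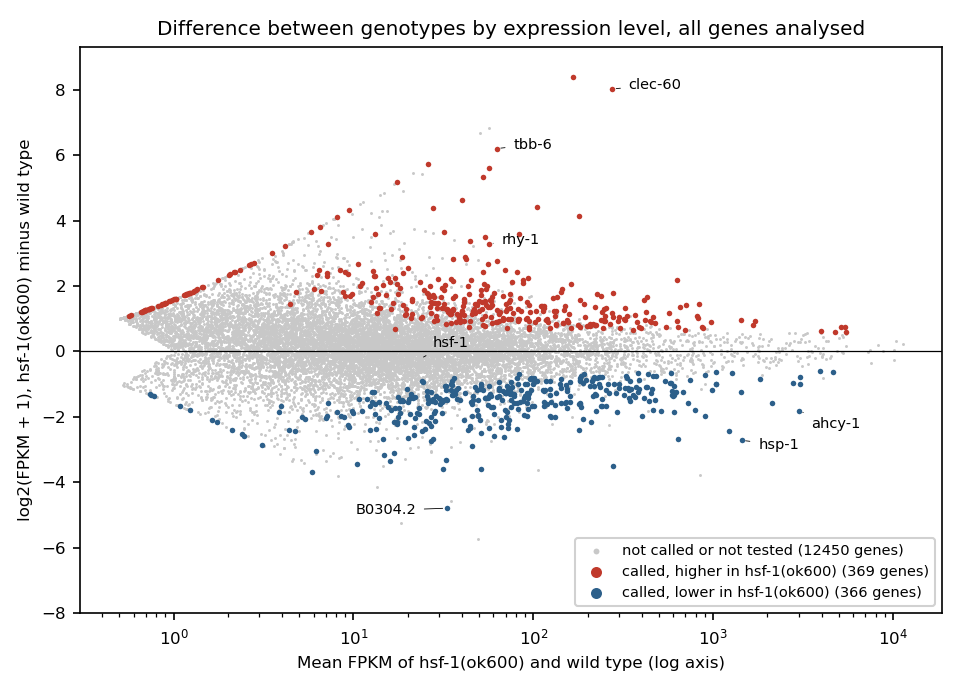
Each point is a gene with its mean FPKM over hsf-1(ok600) and wild type on the log x axis, and its log2(FPKM + 1) difference, mutant minus wild type, on the y axis. Genes that rose and genes that fell by the deposited test are coloured, and 369 and 366 of them spread over the range of levels, with clec-60 near 8.02 and B0304.2 near −4.79, while hsf-1 lies close to 0; the straight upper and lower edges are genes listed at 0 in 1 genotype.

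The thresholds cut through a continuum. Just inside the q threshold lay umps-1, which makes UMP for pyrimidine synthesis, with 11.6 FPKM in mutant larvae and 29.97 in wild type (q = 0.0498 in the authors' deposited table), and the mitochondrial ribosomal gene mrpl-40 lay just outside at 31.9 FPKM in mutant larvae and 83.8 in wild type (q = 0.0504 in the same table). On the rising side abcf-2, for a protein of the ABC class F, was just inside at 437 FPKM in mutant larvae and 276 in wild type (q = 0.0498), and nipa-1 just outside at 135 FPKM in mutant larvae and 77.1 in wild type (q = 0.0509 in the authors' deposited table). At the expression threshold, W03F8.2 was kept at 1.002 FPKM in mutant larvae and 0.126 in wild type, and dsb-3 was left out at 0.864 FPKM in mutant larvae and 0.99998 in wild type.

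The 20 largest falls mixed chaperone genes with metabolic, digestive and uncharacterised genes. Deepest of all was B0304.2, at 1.38 FPKM (interval 0 to 2.66) in the mutant, 18.9 FPKM (interval 2.94 to 34.9) in the transgenic line and 64.7 FPKM (interval 13.5 to 116) in wild type, a fall of 46.9-fold. The files and reference tables give this gene no name or function. The aspartyl protease gene asp-12 fell 13.7-fold, with 6.94 FPKM (interval 0.102 to 14.3) in the mutant, 36.8 in the transgenic line and 95.04 FPKM (interval 30.7 to 159.9) in wild type. An abundant gene without a name, Y94H6A.10, fell 11.6-fold and was at 44.1 FPKM (interval 11.9 to 76.2) in the mutant, 368 in the transgenic line and 514 FPKM (interval 239 to 756) in wild type. Mutant and wild-type intervals were apart in each of these 3 genes.

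Genes of haem uptake, folding and glycine use stood in the same group. hrg-4, for a haem transporter of the gut, was at 2.05 FPKM in mutant larvae, 30.9 in the transgenic line and 29.8 in wild type. The Hsp70 gene hsp-1 (ce10 chromosome IV, 17278920 to 17281298) was at 379 FPKM (interval 202 to 556) in the mutant, 2819.7 in the transgenic line and 2492 FPKM (interval 1587 to 3399) in wild type, and was the most abundant of the 20. Beside it stood sti-1, for the cochaperone that joins Hsp70 to Hsp90, at 6.38 FPKM in mutant larvae, 19.99 in the transgenic line and 47.8 in wild type. gcsh-1, for the lipoate-carrying H protein of the glycine cleavage system, was at 18.7 FPKM in mutant larvae, 58.4 in the transgenic line and 118.95 in wild type, and the invertebrate-type lysozyme gene ilys-5 at 174 FPKM in mutant larvae, 1042 in the transgenic line and 1103 in wild type. The same group held mnm-2, which acts in the shaping of pharyngeal neurons, at 6.72 FPKM in mutant larvae, 14.6 in the transgenic line and 48.3 in wild type, and ent-7, of the nucleoside transporter family, at 4.78 FPKM in mutant larvae, 8.48 in the transgenic line and 35.4 in wild type.

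A subset of the large falls was low in both mutant groups. The telomere-binding protein gene pot-2 was at 2.68 FPKM in mutant larvae, 0.452 in the transgenic line and 30.7 in wild type, and btb-19, of the BTB domain family and close to pot-2 on chromosome II, was at 0.958 FPKM in mutant larvae, 0.346 in the transgenic line and 20.1 in wild type. The cyclophilin gene cyn-2 was at 2.15 FPKM in mutant larvae, 0.728 in the transgenic line and 27.5 in wild type. Neither mutant group had a value above 0 for F38A5.8 and H38K22.7, against 11.8 and 6.19 FPKM in wild type. C52B11.5 was at 3.97 FPKM in mutant larvae, 4.17 in the transgenic line and 59.1 in wild type. The remaining large falls were those of F44E2.9, ZC196.5, C44B7.7 and F49C12.7, none of them named in the files, with mutant levels between 0.554 and 10.1 FPKM and wild-type levels between 11.8 and 81.5 FPKM.

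Among the 20 largest rises were genes that were close to silent in wild type. The lectin gene clec-60, known for its induction in the gut by bacterial infection, was at 546 FPKM (interval 299 to 791) in the mutant, 1.95 FPKM (interval 0 to 4.17) in the transgenic line and 1.11 FPKM (interval 0 to 2.37) in wild type. A divergent beta-tubulin gene, tbb-6, was at 124 FPKM (interval 59.1 to 189.5) in the mutant, 2.14 FPKM (interval 0 to 4.22) in the transgenic line and 0.708 FPKM (interval 0 to 2.07) in wild type. The lipase-related gene lips-11 was at 112.3 FPKM (interval 41.96 to 182) in the mutant, 10.01 in the transgenic line and 1.31 FPKM (interval 0 to 2.58) in wild type. For these 3 genes the mutant interval lay clear of the wild-type one. Likewise apart were C08E8.4, at 103.95 FPKM in mutant larvae, 1.87 in the transgenic line and 1.62 in wild type, and C25F9.11, at 341 FPKM in mutant larvae, 6.37 in the transgenic line and 18.5 in wild type.

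Other large rises were of genes with little annotation. B0563.9 was at 331 FPKM in the mutant and listed at 0 in wild type, but its deposited interval, 21.2 to 222 FPKM, does not hold that value, 1 of 5 such cases among the genes that rose. Y37H2A.14 was at 202 FPKM in mutant larvae, 2.70 in the transgenic line and 8.51 in wild type and Y47H10A.5 at 154 FPKM in mutant larvae, 8.53 in the transgenic line and 11.8 in wild type. B0403.3 was at 99.1 FPKM in mutant larvae, 11.2 in the transgenic line and 7.94 in wild type and H02F09.3 at 53.9 FPKM in mutant larvae, 2.23 in the transgenic line and 1.62 in wild type. The saposin-like genes spp-9 and spp-21, for small proteins that attack membranes and neighbours on chromosome X, had 11.6 and 12.96 FPKM in the mutant and were at 0 in the transgenic line and in wild type. Mutant levels of 34.9, 19.002, 16.113 and 51.97 FPKM were found for nspe-6, Y47D7A.15, F21C10.11 and Y38H6A.5, each listed at 0 in wild type. The mutant interval of Y38H6A.5, 0 to 34.1 FPKM, does not hold its value either, and that of F21C10.11 ran from 0 to 94.1 FPKM. The chemoreceptor-family gene srw-86 was at 77.7 FPKM in mutant larvae, 2.21 in the transgenic line and 2.21 in wild type, and F33H12.7, Y41C4A.11 and Y46G5A.36 completed the group with mutant levels of 60.2, 25.1 and 81.9 FPKM against 3.92, 1.17 and 7.05 in wild type.

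**Figure D2:**
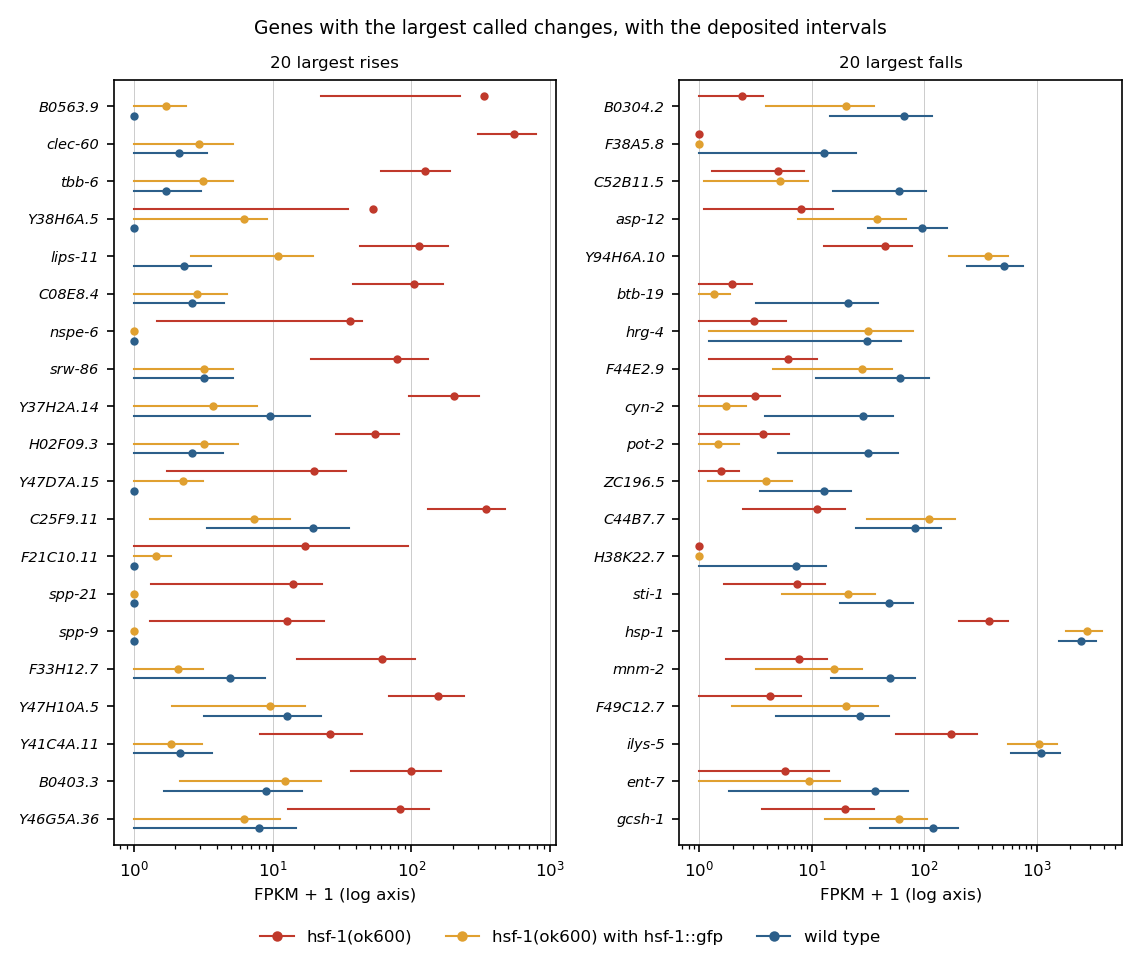
FPKM + 1 on a log axis of the 20 called genes with the largest rise (left) and the largest fall (right) on the log2(FPKM + 1) scale, among genes at 5 FPKM or more in either genotype; points are the combined values of hsf-1(ok600), the transgenic line and wild type, and lines the deposited intervals. In the left panel the transgenic values lie below those of the mutant, and in the right panel those of btb-19, cyn-2, pot-2, C52B11.5, F38A5.8 and H38K22.7 lie near those of the mutant.

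Called changes reached the most abundant RNAs. At 1000 FPKM or more in either genotype, 21 called genes fell and 16 rose. The largest fall of FPKM among them was that of ahcy-1, described below. Of those that rose, rack-1, for the ribosome-bound scaffold protein RACK1, was at 6734 FPKM in mutant larvae and 4002 in wild type, and ftt-2, for a 14-3-3 protein, at 4797 FPKM in mutant larvae and 3103 in wild type. dap-1, a relative of death-associated protein, was at 1028 FPKM in mutant larvae and 383 in wild type, and the unnamed gene F53B2.8 at 1034 FPKM in mutant larvae, 95.4 in the transgenic line and 226 in wild type, a rise of 4.58-fold. Falls at this level included icd-1, for the beta subunit of the nascent polypeptide-associated complex, at 3099 FPKM in mutant larvae and 4693 in wild type in a locus of 3 genes, cox-7C, of cytochrome c oxidase, at 691 FPKM in mutant larvae and 1390.1 in wild type, and inf-1, for the helicase eIF4A, at 1878 FPKM in mutant larvae and 3695 in wild type.

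Most chaperones that act in the cytosol fell. Of 18 tested genes for cytosolic Hsp70, Hsp90 and cochaperones, 11 fell and 0 rose, with a median log2 difference of −1.27, against 2.9% and 2.93% of all tested genes. Their summed level was 1886 FPKM in mutant larvae, 8144 in the transgenic line and 7072 in wild type. In wild type most of that sum belongs to hsp-1 and to the Hsp90 gene daf-21, which was at 385 FPKM (interval 213 to 557) in the mutant and 2062 FPKM (interval 1217 to 2907) in wild type. For the CCT chaperonin, which folds tubulin and actin, and prefoldin, which hands them over, 8 of 14 fell, none rose and the summed level was 1216 FPKM in mutant larvae, 2671 in the transgenic line and 2564 in wild type. The transgenic sum of both groups lay above that of wild type.

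Peptidyl-prolyl isomerases, another class of folding helpers, followed in part. Of 23 tested cyclophilin and FK506-binding genes 4 fell and 0 rose (median −0.40). The abundant cytosolic cyclophilin gene cyn-7 was at 1065 FPKM (interval 559 to 1573) in the mutant, 3081 in the transgenic line and 3193 FPKM (interval 1947 to 4439) in wild type, a fall of 2.998-fold with intervals apart. fkb-5, of the FK506-binding family, fell 2.26-fold to 156 FPKM in the mutant, against 353 in wild type. fkb-6, an Hsp90 cochaperone, fell 3.19-fold, with 47.02 FPKM in mutant larvae and 149.8 in wild type. The other abundant members, cyn-5 with 764 FPKM in mutant larvae and 889 in wild type and fkb-2 with 459 FPKM in mutant larvae and 705 in wild type, did not pass the test.

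No tested gene of tubulin or actin, proteins that CCT folds, fell. Of 26 tested tubulin, actin and actin-binding genes 5 rose and 0 fell, and 19 of 26 were nominally higher (median 0.39). Besides tbb-6, the beta-tubulin gene ben-1 was at 42.2 FPKM (interval 15.9 to 68.5) in the mutant and 14.6 FPKM (interval 3.34 to 25.8) in wild type. The alpha-tubulin gene tba-1 was at 799 FPKM in mutant larvae and 476 in wild type, the profilin gene pfn-1 at 1263 FPKM in mutant larvae and 683 in wild type and cap-2, for a protein that caps actin filaments, at 157 FPKM in mutant larvae and 83.8 in wild type. These 5 were the members that passed. The most abundant ones, act-4 at 4717 FPKM in mutant larvae and 3201 in wild type and tbb-2 at 1862 FPKM in mutant larvae and 1354 in wild type, did not.

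Among stress-induced and small heat shock protein genes 2 of 9 tested genes rose, hsp-43 at 107.7 FPKM in mutant larvae and 47.3 in wild type and sip-1 at 88.7 FPKM in mutant larvae, 23.3 in the transgenic line and 15.8 in wild type, and none fell. The most abundant, hsp-25, was at 1239 FPKM in mutant larvae and 944 in wild type with q = 0.309 in the authors' deposited table. For hsp-16.2 the intervals were apart, 0.857 FPKM (interval 0 to 2.88) in the mutant and 97.1 FPKM (interval 23.2 to 169.6) in wild type, yet q was 0.437 in the authors' deposited table, and it stands in a locus with other hsp-16 copies. The transgenic line had 10.5 FPKM. The median of the list, −0.27, was 1.17 over its genes in a locus of their own, so no direction is given for the group.

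Genes for protein entry into the endoplasmic reticulum fell in part, and no gene for the chaperones inside it passed the test. Of 22 tested genes for protein entry and glycosylation, 7 fell and 0 rose, with a median of −0.54. They encode the translocation channel (emo-1, sec-61.A, sec-61.B) and the translocon-associated complex (trap-1 to trap-4). sec-61.B was at 225 FPKM (interval 34.5 to 415) in the mutant and 802 FPKM (interval 361 to 1242) in wild type, a fall of 3.57-fold. Its neighbour on chromosome IV, trap-3, fell 1.71-fold to 2231 FPKM in the mutant, against 3822 in wild type. trap-4 was at 331 FPKM in mutant larvae and 841 in wild type, trap-2 at 126 FPKM in mutant larvae and 319.8 in wild type and trap-1 at 1302 FPKM in mutant larvae and 2345 in wild type. emo-1 was at 227 FPKM in mutant larvae and 537 in wild type and sec-61.A at 996 FPKM in mutant larvae and 1561 in wild type, the smallest of these falls. Of 23 tested genes for folding inside the organelle and its stress response none passed, and the abundant isomerase gene pdi-2 was at 2301 FPKM in mutant larvae and 2323 in wild type. The difference between the groups was not tested.

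Genes of mitochondrial proteostasis and of the mitochondrial ribosome fell in part. Of 26 tested genes for chaperones, proteases and import 6 fell and none rose (median −0.80, summed level 2559.8 FPKM in mutant larvae, 6443 in the transgenic line and 5501 in wild type). Beside the chaperonin and Hsp70 genes hsp-60 and hsp-6 they included tin-10, for a small import chaperone of the intermembrane space, at 24.9 FPKM in mutant larvae and 96.6 in wild type. The prohibitin gene phb-1 was at 692 FPKM (interval 377 to 1008) in the mutant and 1369.5 FPKM (interval 818 to 1920.0) in wild type, and the J-domain gene dnj-10 at 36.5 FPKM in mutant larvae and 76.8 in wild type. Of 68 tested genes for mitochondrial ribosomal proteins 8 fell and none rose, but 59 of 68 were nominally lower and the median was −0.63. The deepest were mrpl-20, at 14.05 FPKM in mutant larvae, 17.03 in the transgenic line and 74.9 in wild type, and mrps-28, at 71.6 FPKM in mutant larvae, 135 in the transgenic line and 304 in wild type. mrps-12 fell 3.72-fold, mrps-31 3.81-fold, mrpl-50 2.48-fold and mrps-9 2.47-fold. Among 80 tested genes of the cytosolic ribosome 2 fell and 4 rose, with a median of −0.01, whose sign turned (0.0052) over genes in a locus of their own.

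Genes for the assembly of the cytosolic ribosome were nominally lower. Of 32 tested ribosome biogenesis genes 5 fell, none rose and 30 were nominally lower (median −0.62). rpac-19, for a subunit shared by RNA polymerases I and III, was at 15.1 FPKM (interval 0 to 32.4) in the mutant and 67.4 FPKM (interval 9.05 to 126) in wild type, a fall of 4.46-fold. The fibrillarin gene fib-1 fell 2.08-fold, the nucleolin gene nucl-1 1.85-fold, the snoRNP gene nol-5 1.98-fold and dao-5, for a nucleolar phosphoprotein, 1.80-fold. nog-1, for a nucleolar GTPase and also abundant, was at 398 FPKM in mutant larvae and 364 in wild type and did not pass.

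Genes of the methionine cycle, which supplies methyl groups, fell at abundant RNAs. The hydrolase gene ahcy-1 clears S-adenosylhomocysteine, and it was at 1319 FPKM (interval 763 to 1876) in the mutant, 5815 FPKM (interval 4105 to 7525) in the transgenic line and 4664 FPKM (interval 3001 to 6326) in wild type, a fall of 3.54-fold. sams-1, the main S-adenosylmethionine synthetase gene, was at 355 FPKM (interval 202 to 508) in the mutant, 1361 FPKM (interval 857 to 1865) in the transgenic line and 1235 FPKM (interval 788 to 1681) in wild type, a fall of 3.48-fold. pmt-2, which adds methyl groups on the way to phosphocholine, was at 225 FPKM (interval 114 to 336) in the mutant and 600.5 FPKM (interval 345 to 856) in wild type. In all 3 genes the mutant and wild-type intervals were apart. Of 24 tested genes for the methionine cycle and phosphocholine synthesis 7 fell and 1 rose, with a median of −0.58.

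Genes of neighbouring steps fell as well. mel-32, the serine hydroxymethyltransferase gene that charges folate with one-carbon units, was at 120.1 FPKM in mutant larvae and 311 in wild type. The methionine synthase reductase gene, mtrr-1 (listed as tag-165), was at 28.9 FPKM in mutant larvae, 175 in the transgenic line and 78.8 in wild type. cth-2, for a cystathionine gamma-lyase that carries homocysteine on to cysteine, was at 177 FPKM in mutant larvae and 304 in wild type. The opposite direction was seen in the choline kinase gene cka-1, at 40.9 FPKM in mutant larvae, 11.2 in the transgenic line and 14.1 in wild type, which makes phosphocholine from choline without methylation. pmt-1, the partner of pmt-2 in phosphocholine synthesis, was at 413 FPKM in mutant larvae and 608 in wild type with q = 0.0849 in the authors' deposited table.

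Glycine cleavage also gives one-carbon units to folate, in mitochondria. Its list, chosen after values were seen, had 3 of 5 genes that fell and none that rose. gcsh-1 and gcsh-2 both encode the H protein, and gcsh-2, in a locus of 4 genes, was at 113 FPKM in mutant larvae and 362 in wild type. gldc-1, for the decarboxylase that starts the reaction, was at 13.6 FPKM in mutant larvae and 38.5 in wild type. The shared dihydrolipoamide dehydrogenase gene dld-1, which also serves other complexes, was at 909 FPKM in mutant larvae and 1329 in wild type and did not pass.

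All 5 genes of the propionate shunt fell. The shunt breaks down propionate in mitochondria when the canonical pathway, which needs vitamin B12, is limited. In order of the reactions, the acyl-CoA dehydrogenase gene acdh-1 fell 3.92-fold, with 366 FPKM (interval 204 to 527) in the mutant and 1433 FPKM (interval 902 to 1964) in wild type. ech-6, for the hydratase, fell 2.55-fold, with 337 FPKM (interval 169 to 505) in the mutant and 858 FPKM (interval 489.8 to 1227) in wild type. hach-1, for the hydrolase, fell 2.98-fold, with 91.3 FPKM (interval 36.5 to 146) in the mutant and 272 FPKM (interval 138 to 406) in wild type. The dehydrogenase gene hphd-1 was at 57.8 FPKM (interval 21.5 to 94.2) in the mutant and 179 FPKM (interval 89.7 to 269) in wild type. The last step, alh-8, had the smallest fall, 1.57-fold, with 451 FPKM (interval 264 to 638) in the mutant and 706 FPKM (interval 419 to 993) in wild type. Their median log2 difference was −1.57, and acdh-1 was the member with intervals apart.

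Of the 6 genes of the canonical propionate pathway 1 fell and none rose, with a median of −0.03. It was mmaa-1, for a protein that loads the B12 cofactor, at 96.5 FPKM in mutant larvae and 213 in wild type. The carboxylase genes were at 74.3 FPKM in mutant larvae and 75.9 in wild type (pcca-1) and at 219 FPKM in mutant larvae and 225 in wild type (pccb-1). The mutase gene mmcm-1, chosen after its values were seen, was at 49.4 FPKM in mutant larvae and 37.4 in wild type. Whether the 2 routes differ in response was not tested.

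**Figure D3:**
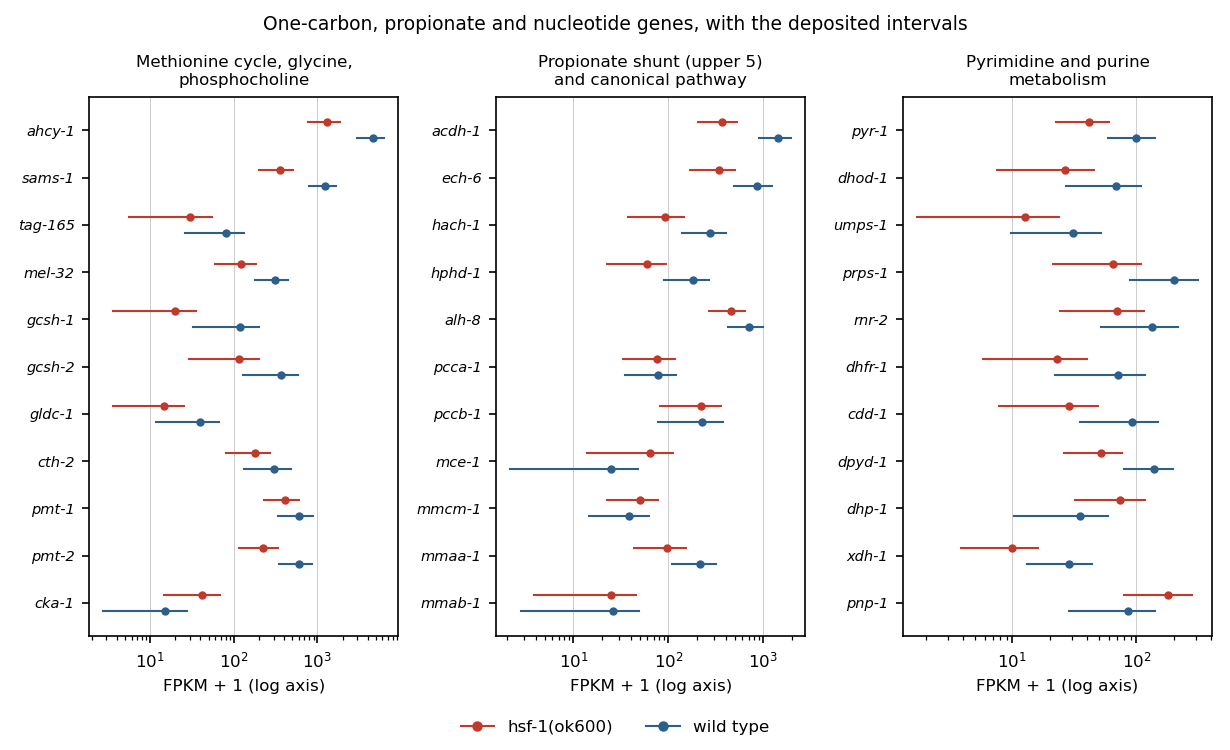
FPKM + 1 on a log axis for genes of the methionine cycle, glycine cleavage and phosphocholine synthesis (left), of propionate breakdown (middle) and of pyrimidine and purine metabolism (right), in hsf-1(ok600) and wild type; points are combined values and lines the deposited intervals. The upper 5 genes of the middle panel, the shunt, lie left of wild type, with acdh-1 at 366 FPKM in the mutant and 1433 in wild type, while pcca-1 and pccb-1 of the canonical pathway lie on top of it; the genes drawn were chosen after their values were seen.

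Genes of nucleotide metabolism fell at several steps. From a list chosen after values were seen, 9 of 23 genes for pyrimidine and purine metabolism fell and 2 rose (median −0.92). prps-1, which makes the ribose phosphate donor for both classes of base, was at 63.9 FPKM (interval 20.4 to 107) in the mutant and 200.5 FPKM (interval 88.2 to 313) in wild type. The cytidine deaminase gene cdd-1 was at 27.4 FPKM (interval 6.74 to 48.1) in the mutant and 91.3 FPKM (interval 33.9 to 148) in wild type, and the dihydroorotate dehydrogenase gene dhod-1 at 25.5 FPKM in mutant larvae and 66.9 in wild type. Among genes of breakdown, dpyd-1, of the reductive pyrimidine route, was at 50.6 FPKM (interval 25.03 to 76.2) in the mutant and 137 FPKM (interval 77.9 to 196) in wild type with intervals apart, and the xanthine dehydrogenase gene xdh-1 was at 8.92 FPKM in mutant larvae and 27.4 in wild type. The dihydrofolate reductase gene dhfr-1 was at 22.1 FPKM in mutant larvae, 23.4 in the transgenic line and 69.6 in wild type, and so was low in both mutant groups. The members that rose were the purine nucleoside phosphorylase gene pnp-1, at 180.1 FPKM in mutant larvae, 48.9 in the transgenic line and 84.2 in wild type, and dhp-1, of the dihydropyrimidinase family, at 73.5 FPKM in mutant larvae and 33.9 in wild type.

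Genes of amino acid breakdown fell in part. Of 24 genes on a list also chosen after values were seen, 8 fell and none rose (median −0.48). oatr-1, for ornithine aminotransferase, was at 42.1 FPKM in mutant larvae and 145 in wild type, and kynu-1, for kynureninase of the tryptophan route, at 17.03 FPKM in mutant larvae and 49.4 in wild type. bckd-1A, for a subunit of the branched-chain ketoacid dehydrogenase, was at 45.7 FPKM in mutant larvae and 96.3 in wild type, and mccc-1, of leucine breakdown, at 60.1 FPKM in mutant larvae and 119.5 in wild type. The lysine gene aass-1 fell 2.03-fold and the tyrosine aminotransferase gene tatn-1 1.87-fold. tdo-2, the abundant tryptophan dioxygenase gene, was at 673 FPKM in mutant larvae and 543 in wild type and did not pass.

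Genes that activate and burn fatty acids fell in part. In the family of acyl-CoA dehydrogenases, synthetases and carnitine transferases, 9 of 43 tested genes fell and 1 rose. Besides acdh-1 and ech-6 these included cpt-4, of the carnitine palmitoyltransferases, at 48.2 FPKM in mutant larvae, 167 in the transgenic line and 130.0 in wild type, and the synthetase genes acs-5, at 48.1 FPKM in mutant larvae and 103 in wild type, and acs-1, which makes branched-chain lipids, at 70.1 FPKM in mutant larvae and 124 in wild type. The dehydrogenase gene acdh-6 was the member that rose, at 28.9 FPKM in mutant larvae, 8.08 in the transgenic line and 5.26 in wild type. Of 8 lipid-binding protein genes, again listed after values were seen, 3 fell: lbp-6 at 126 FPKM in mutant larvae and 459 in wild type, lbp-3 at 405 FPKM in mutant larvae and 949.7 in wild type and lbp-4 at 27.03 FPKM in mutant larvae and 89.9 in wild type. Their list has no common direction, since its median of −0.50 was 0.22 over genes in a locus of their own. For fatty acid synthesis 7 of 27 genes fell, and the one that rose was fat-2, the delta-12 desaturase gene of polyunsaturated fatty acid synthesis, at 859 FPKM in mutant larvae and 541 in wild type.

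Iron and redox genes changed at single points. Of 16 tested haem and iron genes 2 fell, hrg-4 and aco-1, and none rose. aco-1 encodes a cytosolic aconitase related to iron regulatory protein, and was at 168 FPKM (interval 91.2 to 244) in the mutant and 409 FPKM (interval 245 to 572) in wild type, with intervals apart. ftn-2, for the iron store ferritin, was at 674 FPKM in mutant larvae and 839.9 in wild type and did not pass. Of 28 antioxidant genes 1 fell, a share near the 2.9% of all tested genes. It was the methionine sulfoxide reductase gene msra-1, at 263 FPKM (interval 107.8 to 419) in the mutant and 945 FPKM (interval 483 to 1406) in wild type. The peroxiredoxin gene prdx-2, at 1581 FPKM in mutant larvae and 1445 in wild type, and the superoxide dismutase gene sod-1, at 564 FPKM in mutant larvae and 534 in wild type, did not pass.

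Some digestive and lysosomal hydrolase genes fell, and none for the proton pump of the same compartments passed the test. Of 34 tested hydrolase genes 7 fell and 1 rose, with a median of −0.22. The aspartyl protease gene asp-1 was at 852 FPKM (interval 458 to 1247) in the mutant, 2203 in the transgenic line and 2003 FPKM (interval 1282 to 2724) in wild type. cpr-1, a cathepsin B gene of the gut, was at 43.3 FPKM in mutant larvae and 113 in wild type, and the related cpr-6 at 240.0 FPKM in mutant larvae and 422 in wild type. asp-3 was at 295 FPKM in mutant larvae and 465 in wild type and asp-6, the neighbour of asp-12 on chromosome V, at 816 FPKM in mutant larvae and 1262 in wild type. The glucosylceramidase gene gba-4 was at 0.708 FPKM in mutant larvae and 8.03 in wild type, low in both. cpr-4, of the same cathepsin B family, rose 1.90-fold to 322 FPKM in the mutant, against 169 in wild type. Lysozymes, which cut bacterial walls, showed 3 falls and no rise among 9 tested genes: ilys-5 above, lys-4 at 57.04 FPKM in mutant larvae, 288 in the transgenic line and 302 in wild type and lys-1 at 139.8 FPKM in mutant larvae and 292 in wild type. Of 21 vacuolar ATPase genes, for the pump that makes lysosomes acid, none passed, and vha-10 was at 3767 FPKM in mutant larvae and 4257 in wild type.

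Genes of autophagy, which delivers cell contents to lysosomes, rose in part. Of 28 tested autophagy genes 8 rose and none fell, 26 were nominally higher, and the summed level was 2342 FPKM in mutant larvae, 1071 in the transgenic line and 1301 in wild type. The 2 genes of the Atg8 class, whose products coat the growing autophagosome, both rose: lgg-2 was at 593 FPKM (interval 292 to 895) in the mutant, 118 FPKM (interval 31.1 to 204) in the transgenic line and 255 FPKM (interval 97.9 to 413) in wild type. lgg-1 was at 431 FPKM in mutant larvae, 162 in the transgenic line and 125 in wild type, so the mutant had the highest value of both. epg-9, for a partner of the starting kinase, was at 209 FPKM in mutant larvae, 38.6 in the transgenic line and 86.8 in wild type, and atg-13, for another subunit of that complex, at 43.001 FPKM in mutant larvae, 10.7 in the transgenic line and 10.1 in wild type. The cargo receptor gene sqst-1 was at 138 FPKM in mutant larvae, 45.1 in the transgenic line and 50.4 in wild type, and epg-5, which lets autophagosomes mature, at 20.4 FPKM in mutant larvae, 9.99 in the transgenic line and 7.52 in wild type. hlh-30, the transcription factor gene that drives lysosome and autophagy genes, was at 261 FPKM in mutant larvae and 219.8 in wild type with q = 0.625 in the authors' deposited table. The lists of autophagy and of hydrolases were not tested against each other.

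Genes for engulfing dead cells also rose at several points. From a list chosen after values were seen, 5 of 20 rose and none fell (median 0.43). The engulfment receptor gene ced-1 was at 70.2 FPKM (interval 34.7 to 106) in the mutant and 29.5 FPKM (interval 10.3 to 48.8) in wild type. ced-7, for the ABC transporter of the same signal, was at 53.4 FPKM in mutant larvae, 80.1 in the transgenic line and 24.3 in wild type. tat-1 and chat-1 encode the flippase that keeps phosphatidylserine inside the membrane and its partner, and were at 76.7 FPKM in mutant larvae and 41.5 in wild type and at 262 FPKM in mutant larvae, 304 in the transgenic line and 127 in wild type. nrf-5, for a secreted lipid-binding protein of the same pathway, was at 24.99 FPKM in mutant larvae and 8.25 in wild type. The transgenic values of ced-7 and chat-1 lay above those of the mutant.

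Genes of the hypoxia response changed at its regulators as well as its targets. HIF-1 is made all the time and destroyed in normal oxygen: EGL-9 hydroxylates it and VHL-1 marks it for the proteasome, while RHY-1 restrains it in a loop that HIF-1 itself switches on. rhy-1 was at 103.6 FPKM (interval 47.3 to 159.8) in the mutant, 6.25 FPKM (interval 0.408 to 12.07) in the transgenic line and 9.71 FPKM (interval 0.263 to 19.4) in wild type, a rise of 10.7-fold. nhr-57, a nuclear receptor gene used as a reporter of HIF-1, was at 118 FPKM (interval 53.97 to 182) in the mutant, 4.97 FPKM (interval 0.389 to 9.50) in the transgenic line and 20.3 FPKM (interval 4.52 to 36.1) in wild type. Both had intervals apart from wild type. egl-9 was at 89.8 FPKM in mutant larvae, 55.5 in the transgenic line and 27.8 in wild type, and phy-2, for a prolyl hydroxylase of collagen, at 173 FPKM in mutant larvae, 131 in the transgenic line and 95.1 in wild type.

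The one member of this pathway that was called lower was vhl-1, at 8.93 FPKM (interval 1.07 to 16.7) in the mutant, 5.64 FPKM (interval 0.153 to 11.04) in the transgenic line and 43.9 FPKM (interval 9.35 to 78.5) in wild type, low in both mutant groups, with the mutant and wild-type intervals overlapping. The lowest log2 difference of the list, −5.72, was that of hsp-16.2, which is on it too and is described above: its intervals were apart but it was not called. hif-1 itself was at 281 FPKM in mutant larvae, 366 in the transgenic line and 235 in wild type (q = 0.534 in the authors' deposited table), and cysl-2, a target in hydrogen sulfide metabolism, at 219 FPKM in mutant larvae, 196 in the transgenic line and 126 in wild type (q = 0.247 in the same deposited table). In all, 4 of 15 tested members rose and 1 fell.

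Kinase pathways of stress and infection rose in part. From a list chosen after values were seen, 7 of 29 genes rose, none fell and 26 were nominally higher (median 0.74). At the top of the p38 pathway stands the adaptor gene tir-1, at 161 FPKM (interval 77.5 to 245) in the mutant, 96.4 in the transgenic line and 63.6 FPKM (interval 24.6 to 103) in wild type. Of the Tribbles and C/EBP pair nipi-3 was at 73.8 FPKM in mutant larvae, 37.2 in the transgenic line and 29.3 in wild type and cebp-1 at 165.2 FPKM in mutant larvae, 58.1 in the transgenic line and 62.8 in wild type. mek-1, a MAP kinase kinase gene, was at 159 FPKM in mutant larvae, 55.0 in the transgenic line and 80.1 in wild type. The homeodomain-interacting kinase gene hpk-1, which acts with HSF-1 in proteostasis, was at 203 FPKM in mutant larvae, 196 in the transgenic line and 107.6 in wild type. pqm-1, a transcription factor gene of stress and metabolism, had the largest rise of these, 4.34-fold, with 86.8 FPKM (interval 29.5 to 144) in the mutant and 20.01 FPKM (interval 0.624 to 39.5) in wild type. Of other abundant members, zip-2, for a bZIP factor of the surveillance of translation, was at 988 FPKM in mutant larvae and 666 in wild type with q = 0.0640, and jun-1 was at 612 FPKM in mutant larvae, 212 in the transgenic line and 380.3 in wild type with q = 0.101, both in the authors' deposited table.

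**Figure D4:**
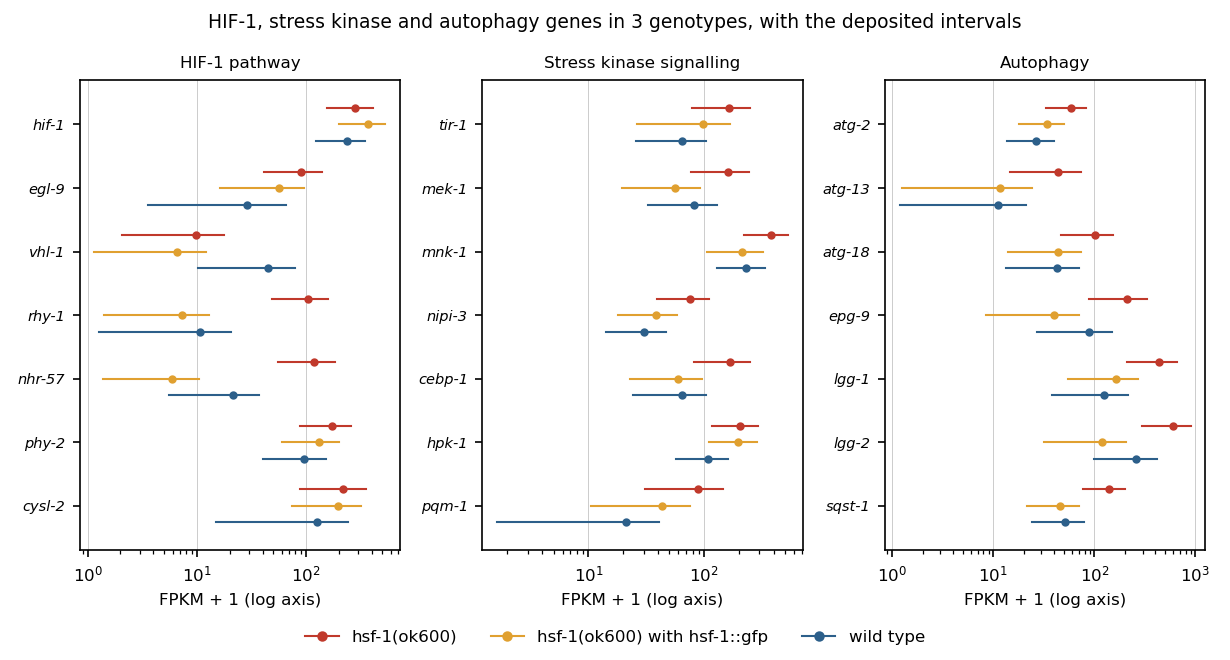
FPKM + 1 on a log axis for genes of the HIF-1 pathway (left), stress kinase signalling (middle) and autophagy (right), in hsf-1(ok600), the transgenic line and wild type from top to bottom within each gene; points are combined values and lines the deposited intervals. rhy-1 and nhr-57 stand apart in the mutant, at 103.6 and 118 FPKM against 9.71 and 20.3 in wild type, whereas vhl-1 is low in the mutant and the transgenic line; the genes drawn were chosen after their values were seen.

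Genes used as markers of defence and of insulin-dependent stress resistance moved in both directions. Of 8 tested infection response genes 2 rose, irg-5 at 62.1 FPKM in mutant larvae, 15.5 in the transgenic line and 19.9 in wild type and irg-6, at 2.92 FPKM in the mutant and listed at 0 in wild type. irg-6 thus passes the minimum through the mutant alone. Among genes named for their place downstream of DAF-16 (dod, dct) 5 of 20 rose and 3 fell. dct-17 was at 138 FPKM (interval 69.0 to 207) in the mutant, 53.1 in the transgenic line and 24.7 FPKM (interval 4.89 to 44.6) in wild type. dct-1, for a mitophagy receptor, was at 227 FPKM in mutant larvae, 61.97 in the transgenic line and 59.3 in wild type, dod-24 at 50.5 FPKM in mutant larvae, 79.0 in the transgenic line and 12.9 in wild type and dod-19 at 502 FPKM in mutant larvae, 265 in the transgenic line and 234 in wild type. Those that fell were dct-5, at 8.796 FPKM in mutant larvae, 3.45 in the transgenic line and 41.9 in wild type, dct-16, at 162 FPKM in mutant larvae, 526 in the transgenic line and 645 in wild type, and dct-18, at 347 FPKM in mutant larvae, 708 in the transgenic line and 865 in wild type. None of 24 tested genes of the insulin signalling core passed, and daf-16 was at 149 FPKM in mutant larvae and 101 in wild type.

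Secreted lectins and saposins did not share a direction. The C-type lectin family had 7 rises and 2 falls among 93 tested genes. After clec-60 came clec-62, at 59.2 FPKM in mutant larvae, 27.7 in the transgenic line and 12.5 in wild type, clec-174, at 15.01 FPKM in mutant larvae, 0.766 in the transgenic line and 1.85 in wild type, and clec-42, at 15.9 FPKM in mutant larvae, 6.10 in the transgenic line and 2.12 in wild type, and the falls were those of clec-186, at 23.8 FPKM in mutant larvae and 68.7 in wild type, and clec-32, listed at 0 in the mutant and at 1.56 FPKM in wild type. Among 21 saposin-like genes 3 rose and 3 fell. spp-17 was at 75.1 FPKM in mutant larvae, 286 in the transgenic line and 340.5 in wild type and spp-2 at 97.3 FPKM in mutant larvae, 16.17 in the transgenic line and 14.4 in wild type. The list's median of 0.02 turned to −0.015 after centring on genes at 5 FPKM or more and to −0.33 over genes at 1 FPKM or more in both genotypes. Of 12 tested galectin genes 1 rose, 1 fell and 10 did not pass. lec-8, for a lectin of the gut, was at 154 FPKM (interval 69.9 to 239) in the mutant, 32.5 in the transgenic line and 31.5 FPKM (interval 9.18 to 53.6) in wild type, and the one that fell, lec-10, at 251 FPKM in mutant larvae, 713 in the transgenic line and 704 in wild type.

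F-box A genes, a large family of ubiquitin ligase adaptors, lay at low levels. Of 192 listed, 83 reached 1 FPKM in either genotype and 79 were tested, of which 4 rose and 1 fell. fbxa-60 was at 22.2 FPKM in mutant larvae, 3.83 in the transgenic line and 3.66 in wild type, and the mutant had 1.16, 1.38 and 2.58 FPKM of fbxa-116, fbxa-158 and fbxa-166, which were at 0 in wild type. The member that fell, fbxa-72, was at 18.01 FPKM in mutant larvae, 22.1 in the transgenic line and 95.3 in wild type, low in both mutant groups. The family's median of 0.99 was 0.35 over members at 1 FPKM or more in both genotypes and 0.19 with no minimum, and members that pass the minimum through the mutant alone are higher there by that choice. Nuclear hormone receptor genes had 1 fall and 1 rise in 183 tested genes. The fall was that of nhr-114, a receptor gene that links methionine and B12 supply to fertility, at 34.98 FPKM in mutant larvae, 116 in the transgenic line and 116 in wild type in a locus of 3 genes.

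Some cuticle and signalling genes were called, mostly higher, and these counts are read beside the 2.93% of all tested genes that rose. Nominally higher were 70 of 93 col genes analysed, 11 of 18 body shape and furrow collagen genes and 29 of 40 moulting genes. The same held for 28 of 40 genes of the TGF-beta, Wnt and Notch pathways, beside 57.7% of all genes analysed. Of 89 tested col genes 6 rose and 1 fell (median 0.43). col-14 was at 111 FPKM in mutant larvae and 36.9 in wild type, col-125 at 1092 FPKM in mutant larvae and 660.4 in wild type and col-149, the one that fell, at 44.1 FPKM in mutant larvae and 103.8 in wild type. Of 18 body shape and furrow collagen genes 2 rose, rol-6 at 586 FPKM (interval 320.0 to 850.1) in the mutant and 315 FPKM (interval 160.1 to 467) in wild type, and sqt-1 at 1085 FPKM (interval 628 to 1542) in the mutant and 645 FPKM (interval 366 to 924) in wild type. Of 40 moulting genes 4 rose, among them qua-1, a hedgehog-related gene, at 302 FPKM in mutant larvae and 184 in wild type, and lrp-1, for a sterol-uptake receptor of the epidermis, at 119.2 FPKM in mutant larvae and 70.5 in wild type. In the TGF-beta, Wnt and Notch pathways 2 of 40 genes rose: lon-1, a body size gene repressed by the Sma/Mab pathway, at 102 FPKM in mutant larvae, 67.998 in the transgenic line and 40.3 in wild type, and sup-17, for the protease that cuts Notch, at 37.01 FPKM in mutant larvae, 23.2 in the transgenic line and 18.9 in wild type.

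Adult markers were at or near 0 in both genotypes, which does not place the larvae against each other. The adult collagen gene col-19 was listed at 0.142 FPKM in the mutant and 0 in wild type, and col-7 at 0 in both. The yolk gene vit-2 was at 1.74 FPKM in mutant larvae and 0.761 in wild type. Of 20 genes of developmental timing none passed. lin-14 and lin-28, which set early larval fates, are outside the naming rule and were at 66.997 FPKM in mutant larvae and 57.3 in wild type and at 30.98 FPKM in mutant larvae and 22.5 in wild type. lin-42, the period homologue whose RNA cycles with the moults, was at 477 FPKM in mutant larvae and 591 in wild type with q = 0.426 in the authors' deposited table. A shift in phase within the cycle cannot be told apart from an effect of genotype in the collagen and moulting genes.

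Markers of the large tissues were summed over each list. Muscle markers summed to 29662 FPKM in mutant larvae, 28110.2 in the transgenic line and 25728 in wild type, and 1 of 42 rose, the integrin gene pat-3 at 153 FPKM in mutant larvae and 93.7 in wild type. Their median of 0.01 turned to −0.026 after centring and to −0.028 over genes in a locus of their own. For the intestine the sum was 3119.8 FPKM in mutant larvae, 5295 in the transgenic line and 4634 in wild type, with falls of asp-1 and cpr-1 alone. Its other members lie on both sides: act-5, the actin gene of the microvilli, was at 904 FPKM in mutant larvae and 1127 in wild type and elt-2, the main gut transcription factor gene, at 22.5 FPKM in mutant larvae and 17.9 in wild type. Without asp-1 and cpr-1, the markers that the hydrolase list holds too, the sum was 2224 FPKM in mutant larvae, 2992 in the transgenic line and 2518 in wild type, a removal chosen after seeing the data. The sum for neurons was 3101 FPKM in mutant larvae, 2269.7 in the transgenic line and 2162 in wild type, and 4 of 38 rose, all for vesicles or peptide processing. snb-1 was at 624 FPKM in mutant larvae and 303 in wild type, egl-3 at 425 FPKM in mutant larvae and 215 in wild type, egl-21 at 281 FPKM in mutant larvae and 161 in wild type and ida-1 at 95.9 FPKM in mutant larvae and 48.1 in wild type. Over the neuron list 33 of 38 genes were nominally higher and 5 lower (median 0.34), beside 57.7% of all genes analysed that were higher. The general neuron markers rab-3 and unc-119 were picked after their values were seen. rab-3 was at 179.8 FPKM in mutant larvae and 186 in wild type, and unc-119 at 36.01 FPKM in mutant larvae and 33.2 in wild type.

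Germ line and pharynx markers had few calls. The germ line list summed to 436 FPKM in mutant larvae, 481 in the transgenic line and 453 in wild type, and 1 of 38 fell, the meiotic cohesin gene rec-8 at 3.14 FPKM in mutant larvae and 11.4 in wild type. The pharynx and gland list summed to 829 FPKM in mutant larvae, 961 in the transgenic line and 1007 in wild type, with none of 14 called. Of its 15 genes analysed 9 were nominally lower and 6 higher (median −0.25). The intestine sum was lower in the mutant, as were hydrolase, lysozyme and metabolic genes above, but asp-1 and cpr-1 count in both, and the part of tissue proportions in those falls was not tested.

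**Figure D5:**
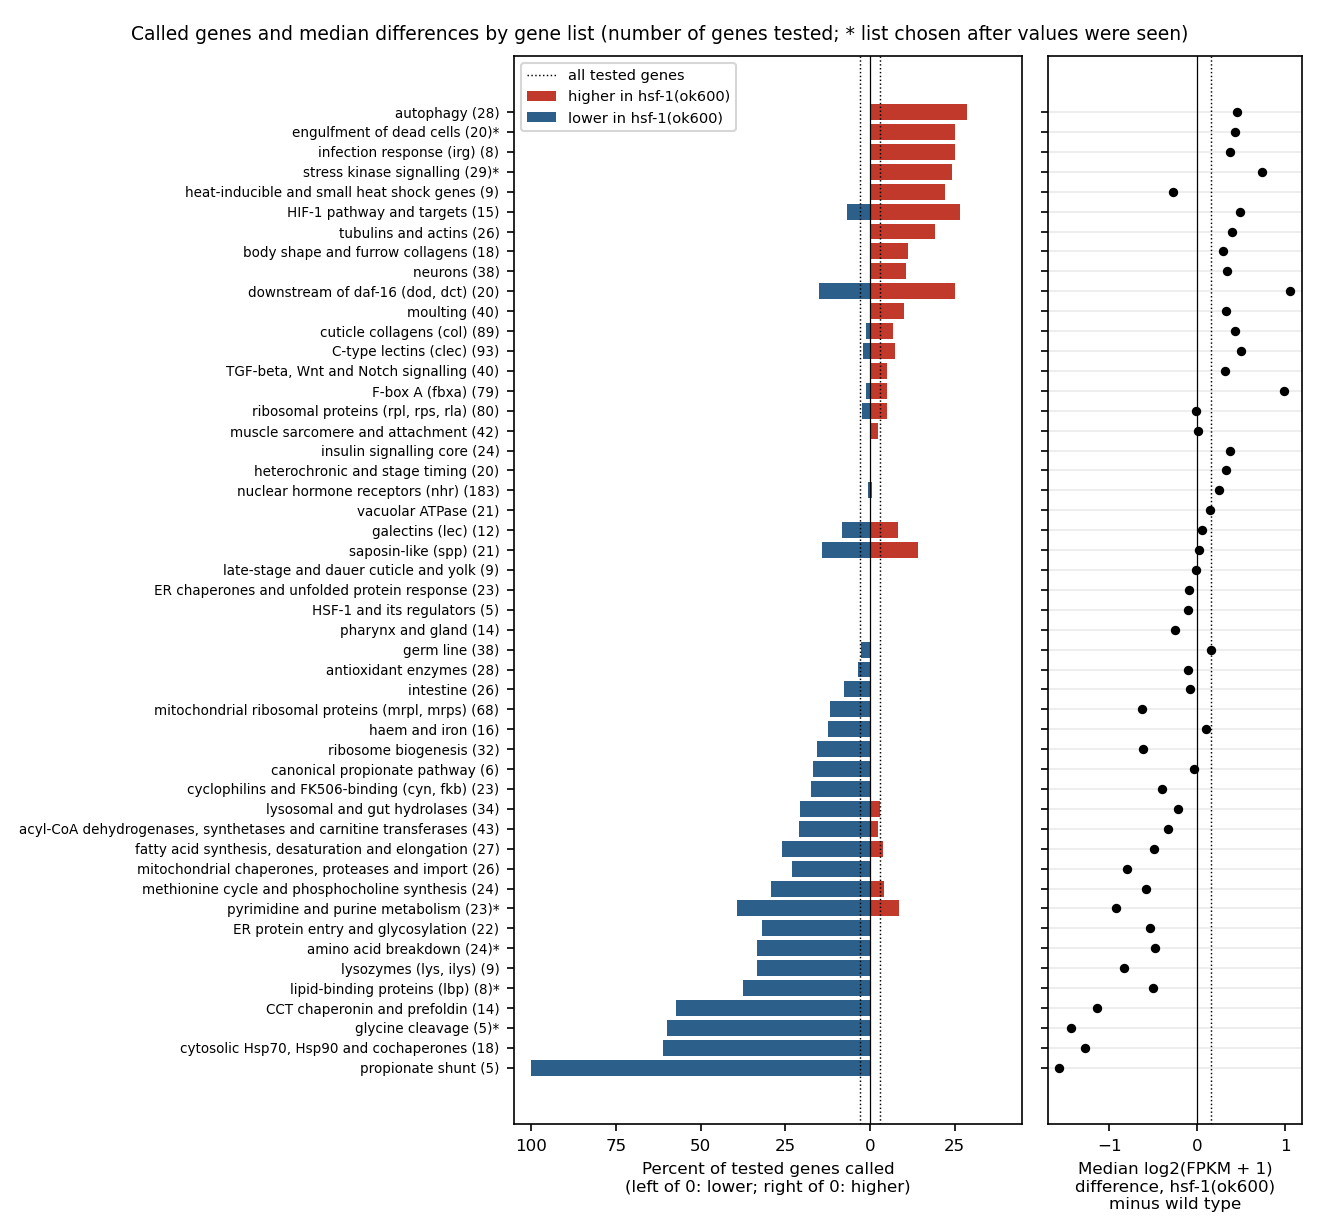
Left, percent of the tested genes of each list that were called higher (right of 0) or lower (left of 0) in hsf-1(ok600), with dotted lines at 2.93% and 2.9%, the shares over all tested genes; right, the median log2(FPKM + 1) difference of the list, mutant minus wild type, with a dotted line at 0.15, the median over all genes. Propionate shunt, cytosolic chaperone, glycine cleavage and CCT lists have the largest shares called lower. Autophagy, engulfment, infection response and stress kinase lists are at the other end. The few calls of the infection response list include irg-6, which passes the minimum through the mutant alone. Numbers after each name are tested genes, and an asterisk marks a list chosen after values were seen. The glycine cleavage, engulfment and stress kinase lists are of that kind, so their places at the ends may follow from the choice.

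Called genes lay on every chromosome. By chromosome the share of tested genes that fell was lowest on X at 1.88% and highest on III at 3.55%. The share that rose was highest on X at 3.97% and lowest on I at 2.31%, and the median difference on X was 0.25, against 0.08 to 0.15 on the autosomes. Chromosomes I and III, which the balancer of the parent strain rearranges, had shares of 3% and 3.55% that fell and 2.31% and 2.47% that rose. Within 0.5 Mb of hsf-1 on chromosome I, 4 of 76 tested genes fell and 6 rose, or 5.26% and 7.89%. Within 1 Mb, 7 of 173 tested genes fell and 9 rose, or 4.05% and 5.2%. Within 2 Mb the shares were 2.45% and 3.34%.

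Some called genes were neighbours. Among all genes analysed, adjacent genes called in the same direction made 16 runs of genes that fell, with 33 genes, and 19 runs of genes that rose, with 38. How many runs the shares of called genes alone would give was not worked out. The longest, of 3 genes on chromosome III, 5848795 to 5859141 of ce10, held ddx-23 at 20.6 FPKM in mutant larvae and 43.7 in wild type, cct-6 at 53.8 FPKM in mutant larvae and 129.9 in wild type and alh-9 at 29.5 FPKM in mutant larvae and 68.1 in wild type. Others that fell were sec-61.B with trap-3, hsp-60 with Y22D7AL.10, asp-6 with asp-12, acox-1 with acox-1.2 and cct-2 with mrpl-50. Among those that rose were dod-21 with dod-24, spp-9 with spp-21, and fbxa-158 with fbxa-166. Of genes that share a locus in the files 1.63% lower and 1.27% higher, against 3.36% and 3.52% of genes in a locus of their own, a difference that was not tested. Reads of overlapping genes may be split or dropped in such loci, and the sources used here do not say whether strand was used in counting.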

How the data were processed

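RNA-seq libraries of hsf-1(ok600), its transgenic line and wild type (3 each, grouped by their titles) were mapped with TopHat2 to ce10 and compared with Cuffdiff, per the submitters' processing notes; the sources used here give no version, annotation or filter. As the authors deposited them, per the file headers, the tables hold 1 FPKM with bounds per gene and genotype. The p-value and q-value of each gene are those of the authors' test of mutant and wild type. They set a difference against variation estimated from these libraries, and nothing says that the libraries came from separate cultures.

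Calls used q of at most 0.05 with FPKM of at least 1 in either genotype, log2 differences a pseudocount of 1, and folds the ratio of deposited FPKM. The scale of the deposited test table differs slightly (median ratio 1.04 in wild type and in the mutant), and levels are from the table of all genotypes. Genes were matched by sequence name, since 6 symbols read as dates, and 19879 of 20389 have a RefSeq symbol. Coordinates are ce10, from the files. Named were the 20 largest called falls and rises at 5 FPKM or more, up to 6 called members per direction and the 3 most abundant of each list, threshold neighbours and called genes at 1000 FPKM or more; others are marked. The general neuron markers, stage markers and neighbour pairs were named after their values were seen.

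Genes and lists were chosen with earlier results of these data known. A small simulation with its own values and its own simple test was run to check the code of the adjustment. It used neither the deposited q-values nor the deposited intervals, so it does not show how the calls behave in these data. Python 3.11.15, pandas 2.3.3, numpy 2.4.6 and matplotlib 3.10.9 were used.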

Additional observations from a re-analysis of the deposited data

How the results depend on the processing

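With a q of at most 0.01 in the authors' deposited table, 163 genes fell and 190 rose, and with separate intervals in place of q, 35 and 82. The counts of calls moved by less than 1.5 times with 5 FPKM or more in either genotype (356 and 318) and with 1 FPKM or more in both (350 and 304). They did so too with a log2 difference of at least 1 (305 and 285) and over genes in a locus of their own (312 and 327). Using no filter, or adjusting p-values again over the genes analysed, could not change the calls, since every tested gene was among the genes analysed. Of the genes with intervals apart and higher in the mutant, 36 were left at 1 FPKM or more in both genotypes. The median of all genes was 0.046 with no filter. Over the lists described, 297 of 343 medians moved by at most 0.1, and 310 of 399 counts above 0 in some setting by at most 1.5 times. Those 310 include 57 counts under each of the settings that could not change a call. Medians changed sign over genes in a locus of their own for HSF-1 and its regulators (0.24), heat-inducible genes (1.17), late-stage and yolk genes (0.31), lipid-binding proteins (0.22), ribosomal proteins (0.0052) and muscle (−0.028). They also did so for heat-inducible genes (0.35) and saposins (−0.33) at 1 FPKM or more in both, and after centring for muscle (−0.026) and saposins (−0.015). The cause was not tested.

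No paired analysis was possible because the tables hold 1 value per gene and genotype and carry no replicate numbers, and for the same reason no fit without a replicate was run. Promoter motifs were not analysed here. At 20 FPKM or more in both genotypes the bounds lay a median of 63.3% from the mutant value and 65.7% from the wild-type value, which limits what is called.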
